A study of Mus musculus with 13 samples.

Results

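The EGF family of mouse embryonic fibroblasts (MEFs) is described here by 9 genes, chosen by name among the 57010 genes counted in each library: the ligands Areg, Ereg, Hbegf, Tgfa, Btc and Nrg1, and the receptors Egfr, Erbb2 and Erbb3. The RNA-Seq held 4 groups of wild-type MEFs, and the labels number the mice 4, 5 and 6 in each. Control MEFs were left untreated. Senescent MEFs had been exposed to 2 µM etoposide, a topoisomerase poison that breaks DNA, for 24 h and were cultured 5 days longer. The remaining groups were senescent MEFs of the same kind that then received Fucoidan-FV, a sulfated polysaccharide from the brown alga Fucus vesiculosus, at 100 or 300 µg/mL, with RNA taken 12 h later. No group was given Fucoidan-FV without etoposide, so its effect on non-senescent MEFs was not measured. Control mouse 5 was sequenced as 2 libraries, labelled 5(1) and 5(2), which were summed, so the 13 libraries give 3 mice in each group. The cultures come from embryos, and the labels do not say whether samples with the same mouse number in different groups came from 1 culture.

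EGF family ligands are made as membrane-anchored precursors that ADAM proteases cut free, and they bind receptor tyrosine kinases which pair up and signal through RAS, RAF, MEK and ERK. Egfr binds Areg, Ereg, Hbegf, Tgfa and Btc, while Nrg1 binds Erbb3 and Erbb4, and Erbb2 has no known ligand of its own and acts as the partner of the others. Several of these ligands are growth factors for fibroblasts and epithelium, and heparin-binding EGF (Hbegf) and Areg also attach to sulfated sugars of the cell surface. ERK in turn induces a set of transcription factors and of phosphatases that switch ERK off, which serves as a readout of ERK and not of the EGF receptors alone. The activity of the receptors and of ERK was not measured here.

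The cells were fibroblast-like in all groups. The summed level of 10 fibroblast markers lay between 13025 and 17574 CPM (counts scaled to library size) in every sample, though single markers moved. In senescent against control MEFs 3 of the 10 had an adjusted p under 0.05 (edgeR), 1 higher and 2 lower, beside 11.7% of all genes. Against senescent MEFs, Col3a1 rose at both doses (872 ± 41.8 to 2269 ± 440 and 1962 ± 629 CPM, adjusted p = 0.0164 and 0.0489), and at 100 µg/mL Lum rose (0.67 ± 0.25 to 6.60 ± 2.22 CPM, 0.0399) and Vim fell (7725 ± 1198 to 4225 ± 342 CPM, 0.0245). Their part in the members' differences was not tested. The senescence check moved with etoposide. Cdkn1a, the CDK inhibitor p21, was 468 ± 83.2 CPM (SD, n = 3) in control and 1651 ± 187 CPM in senescent MEFs, and Cdkn2a, the p16 and ARF locus, was 45.2 ± 8.41 and 248 ± 89.3 CPM (adjusted p = 6.8e-05 and 7.24e-05, edgeR). Total counts were 22782536 to 31278750 per library. Of the 9 members, 8 had enough counts to be tested, and Areg, at most 6 counts in a sample, did not. The libraries differed in the recovery of genes whose exons belong to a single transcript. Over the 2274 tested genes with more than 95% of such sequence, the median deviation of a sample from the mean of its gene ran from -1.35 to 0.90 on the log2 scale, lowest in control mouse 6 and highest in the 100 µg/mL sample of mouse 5. Ereg, Areg and Erbb3 are 100% such sequence, Hbegf 86.6%, Tgfa 85%, Egfr 75.6%, Btc 42.5%, Nrg1 36.7% and Erbb2 18%. Values from a fit with an offset for this feature are therefore given beside several results, and its part in the results was not tested.

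The 4 ligand genes of one cluster lie together in the genome build GRCm39. Epgn, Ereg and Areg on the forward strand and Btc on the reverse strand share a 375561-base stretch of chromosome 5, with Ereg at chr5:91222157-91241505, Areg 45945 bases beyond it at chr5:91287451-91296291, and Btc at chr5:91505120-91550883. Detection differed among these neighbours, since Ereg was detected in every sample with 58 counts or more in all but the 300 µg/mL sample of mouse 4, which had 23, while Areg and Btc stayed at 6 and 50 counts or less. Nrg1 covers chr8:32303906-33374825 on the reverse strand, Egfr chr11:16702198-16868158 and Erbb2 chr11:98303203-98328542 on the forward strand, and Hbegf chr18:36637980-36649677 on the reverse strand. All 9 are annotated as protein-coding. The annotation places exons of other genes over parts of Ereg, Hbegf, Tgfa, Nrg1 and Erbb2, mostly on the opposite strand, and those listed in the files reached 4 counts (Gm19610 over Ereg) and 482 counts (Mien1, 9 shared bases with Erbb2). Whether counting used strand is not given in the sources used here.

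The 250 bases upstream of the annotated canonical start are shown for Ereg, Nrg1, Egfr and Erbb2, 4 of the 5 well-counted members, to set the sequence before the start beside the levels that follow. Both strands were searched for the TATA box TATAAA, the AP-1 site TGANTCA, the cAMP response element TGACGTCA, the GC box GGGCGG and the TEAD site GGAATG, and capitals mark the matches. No 2 matches overlap in the windows shown. Among 21651 windows of protein-coding genes of the same length, 11.9% held the TATA box, 6.19% the AP-1 site, 1.69% the cAMP response element, 36.4% the GC box and 12.1% the TEAD site.

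Ereg: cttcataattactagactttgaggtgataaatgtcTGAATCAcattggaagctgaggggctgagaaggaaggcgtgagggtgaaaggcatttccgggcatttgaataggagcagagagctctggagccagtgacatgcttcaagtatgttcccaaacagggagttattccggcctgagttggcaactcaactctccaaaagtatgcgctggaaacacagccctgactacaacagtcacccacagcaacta
Nrg1: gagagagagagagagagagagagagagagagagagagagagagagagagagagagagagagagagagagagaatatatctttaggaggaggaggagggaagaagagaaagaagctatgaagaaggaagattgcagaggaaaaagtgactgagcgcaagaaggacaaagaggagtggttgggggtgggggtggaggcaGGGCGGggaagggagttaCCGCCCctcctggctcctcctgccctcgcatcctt
Egfr: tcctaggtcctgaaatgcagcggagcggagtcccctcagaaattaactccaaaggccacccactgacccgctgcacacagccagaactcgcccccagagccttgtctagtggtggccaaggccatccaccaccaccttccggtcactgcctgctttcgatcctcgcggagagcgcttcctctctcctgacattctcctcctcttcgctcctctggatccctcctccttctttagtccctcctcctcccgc
Erbb2: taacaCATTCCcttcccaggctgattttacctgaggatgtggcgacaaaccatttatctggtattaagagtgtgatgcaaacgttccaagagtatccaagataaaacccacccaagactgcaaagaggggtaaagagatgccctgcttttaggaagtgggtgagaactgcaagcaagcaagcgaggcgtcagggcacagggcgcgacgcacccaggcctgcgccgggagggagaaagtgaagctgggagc

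The windows are chr5:91221907-91222156 (forward strand) for Ereg, chr8:32408882-32409131 (reverse strand) for Nrg1, chr11:16701948-16702197 (forward strand) for Egfr and chr11:98302953-98303202 (forward strand) for Erbb2. The Ereg window held 1 AP-1 match that begins 215 bases before the start, the Nrg1 window 2 GC boxes at 53 and 35 bases, the Erbb2 window 1 TEAD match at 245 bases, and the Egfr window none of the 5 motifs. Nrg1 has many starts, and its window belongs to the transcript that the annotation (GENCODE vM39) calls canonical, which is not among the 33 transcripts the files list for the gene. In G and C content the windows were 48.0% for Ereg, 53.6% for Nrg1, 60.0% for Egfr and 52.8% for Erbb2, beside a median of 53.2% over all windows. The Hbegf window, which is not shown, had 71.2% G and C, 3 GC boxes and no AP-1 match. A match is a match of letters, and binding was not measured.

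Compared per length, in TPM (levels scaled to transcript length and library size), the leading ligand differed between the groups with and without Fucoidan-FV. Hbegf was the most abundant of the 9 in control MEFs, at 92.8 ± 10.5 TPM, and in senescent MEFs, at 76.8 ± 10.8 TPM (SD, n = 3), followed by Egfr with 26.0 ± 5.01 and 36.6 ± 20.9 TPM. At 100 and 300 µg/mL Egfr led with 59.9 ± 11.9 and 54.3 ± 3.79 TPM, Nrg1 came next with 39.8 ± 10.7 and 46.8 ± 6.46 TPM, and Hbegf stood at 23.2 ± 10.8 and 21.0 ± 10.1 TPM. Among the 5 leading genes, the neighbours in this order whose ranges overlapped within a group were Erbb2 and Nrg1 in control MEFs, Egfr and Nrg1 in senescent MEFs, Nrg1 with Hbegf and Hbegf with Erbb2 at 100 µg/mL, and Egfr with Nrg1 at 300 µg/mL.

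The ratio of Nrg1 to Hbegf in TPM put this in 1 value per sample. It was 0.076, 0.152 and 0.106 in control mice 4, 5 and 6, and 0.185, 0.363 and 0.167 in the senescent samples. At 100 µg/mL it was 1.17, 1.3 and 3.93, and at 300 µg/mL 2.29, 1.67 and 3.51. Hbegf thus exceeded Nrg1 in each of the 6 samples without Fucoidan-FV and Nrg1 exceeded Hbegf in each of the 6 with it, which is a description and was not tested. The TPM of all 6 ligands together was 83.1 to 112 in senescent MEFs and 55.1 to 81.5 and 59.7 to 88.3 at the doses, while the 3 receptors together were 23.1 to 64.9, 63.7 to 86.3 and 61.9 to 69.7.

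**Figure D1:**
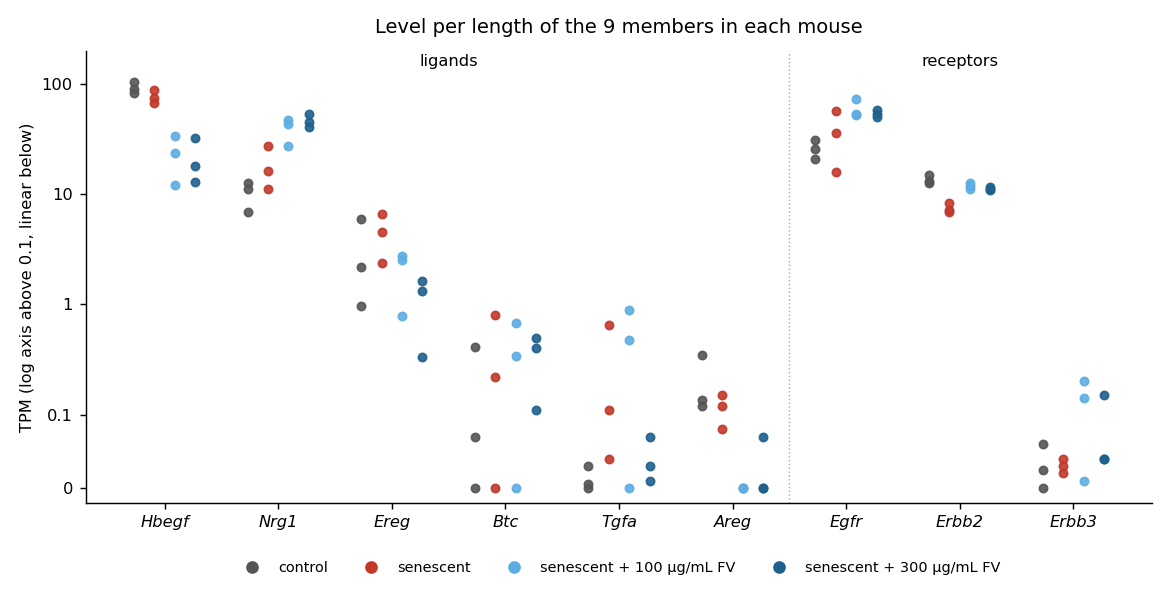
Level of the 9 members in TPM, on an axis that is logarithmic above 0.1 and linear below, with 1 point per mouse and the 4 groups side by side in each gene. Hbegf, Nrg1, Egfr and Erbb2 lie above 6 TPM in every sample, Ereg between 0.33 and 6.58 TPM, and Btc, Tgfa, Areg and Erbb3 below 1 TPM.

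Hbegf, the heparin-binding ligand of Egfr, had lower mRNA after Fucoidan-FV, as did Ereg, described below. Its TMM-scaled level was 114, 99.1 and 104 CPM in control mice 4, 5 and 6, and 91.9, 63.0 and 111 CPM in senescent MEFs. With 100 µg/mL it was 23.1, 32.2 and 7.37 CPM and with 300 µg/mL 17.1, 27.5 and 12.7 CPM. The 6 treated samples lay below all 6 untreated ones, and control and senescent MEFs overlapped. In bulk RNA, fewer cells that make a transcript and less of it per cell cannot be told apart.

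Against senescent MEFs, Hbegf fell by 2.08 on the log2 scale (SE 0.44, 4.23-fold lower) at 100 µg/mL and by 2.21 (SE 0.44, 4.62-fold lower) at 300 µg/mL, with adjusted p = 0.0202 and 0.0237 in edgeR's quasi-likelihood test over 15034 genes. A gene is called where its Benjamini-Hochberg adjusted p in this test is under 0.05. It was lower in 3 of 3 mice at either dose. Both doses were set against the same senescent samples, so they are not independent of each other. It was the only member called at 100 µg/mL, 1 of 8 tested beside 4.02% of all genes (2.89% lower, 1.14% higher), and the only one called at 300 µg/mL, beside 1.9% of all genes (1.12% lower, 0.778% higher). Senescent and control MEFs differed in Hbegf by -0.26 (SE 0.42, adjusted p = 0.778). Against control MEFs Hbegf fell by 2.34 and 2.46, with adjusted p = 0.00173 and 0.00137.

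The calls depended on single samples. At 100 µg/mL edgeR's adjusted p was above the threshold when any senescent mouse was left out (0.088, 0.0656 and 0.14 without mouse 4, 5 and 6), when the treated sample of mouse 4 was (0.0761), and when only the 2 groups were fitted (-1.95, adjusted p = 0.124). At 300 µg/mL edgeR's adjusted p was above it without senescent mouse 4, 5 or 6 (0.0748, 0.0532 and 0.108) and without the treated sample of mouse 4 or 6 (0.0882 and 0.138). The direction was kept in all 17 alternatives, with values from -2.71 to -1.68 and from -2.56 to -1.96. DESeq2 gave adjusted p = 2.14e-07 and 1.49e-08.

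**Figure D2:**
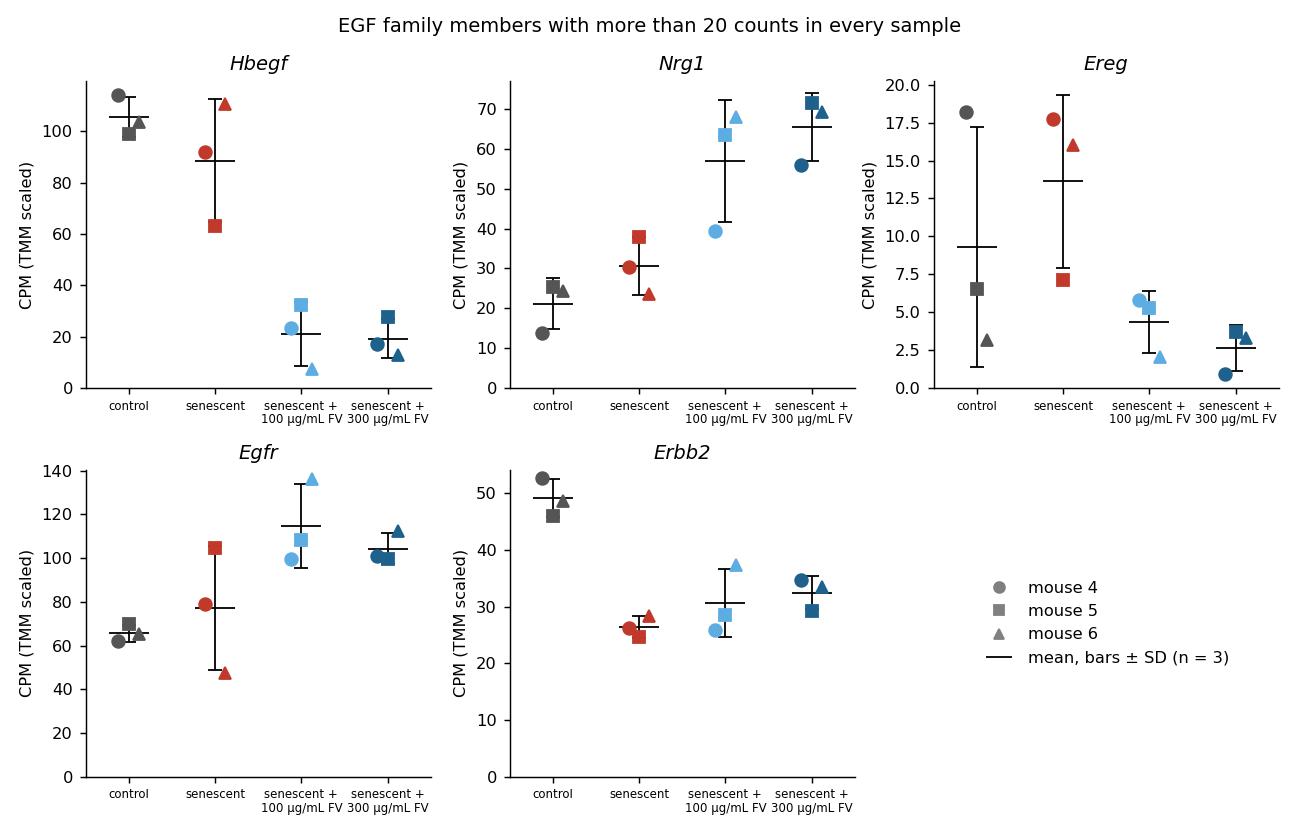
TMM-scaled CPM of the 5 members with more than 20 counts in each sample, by group, with 1 symbol shape per mouse, the mean as a horizontal bar and the SD as error bars (n = 3). Hbegf and Ereg sit lower and Nrg1 higher in all 6 samples with Fucoidan-FV than in the 3 senescent samples, and Erbb2 is highest in the 3 control samples.

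Nrg1, the neuregulin that binds Erbb3 and Erbb4, ran the other way. It was at 13.8, 25.3 and 24.2 CPM in control mice 4, 5 and 6 and at 30.3, 37.9 and 23.5 CPM in senescent MEFs. It reached 39.5, 63.6 and 68.0 CPM at 100 µg/mL and 55.8, 71.6 and 69.2 CPM at 300 µg/mL. All treated samples were above all senescent and control samples, while senescent and control overlapped through mouse 6.

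Relative to senescent MEFs the log2 difference of Nrg1 was 0.90 (SE 0.29, adjusted p = 0.0954) at 100 µg/mL and 1.10 (SE 0.29, adjusted p = 0.0727) at 300 µg/mL by edgeR, so it did not pass the threshold at either dose, although it was higher in 3 of 3 mice. It passed with DESeq2 (adjusted p = 0.0254 and 0.0109) and without the filter on low counts (0.0219 and 0.00685). Over the 17 alternatives the difference ran from 0.55 to 1.21 at 100 µg/mL and from 0.76 to 1.33 at 300 µg/mL. Against control MEFs, Nrg1 rose by 1.43 (SE 0.29, 2.7-fold) at 100 µg/mL and by 1.63 (SE 0.29, 3.10-fold) at 300 µg/mL, with adjusted p = 0.00268 and 0.00128. All 17 alternatives kept these calls, with values from 1.01 to 1.72 and from 1.20 to 1.84. The difference between senescent and control MEFs was 0.53 (SE 0.28, adjusted p = 0.269).

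Ereg, epiregulin, a ligand of Egfr, was the least even of the counted ligands. Control mice 4, 5 and 6 had 18.2, 6.55 and 3.15 CPM and senescent MEFs 17.7, 7.11 and 16.0 CPM. The samples given 100 µg/mL had 5.79, 5.26 and 2.01 CPM, and those given 300 µg/mL 0.89, 3.66 and 3.32 CPM. The treated samples were all below the senescent ones but overlapped the controls, whose own range was wider than any other group's.

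The log2 difference of Ereg from senescent MEFs was -1.65 with an SE of 0.68 at 100 µg/mL and -2.38 with an SE of 0.70 at 300 µg/mL. Neither passed the threshold in edgeR, whose adjusted p was 0.194 and 0.106, although both were lower in 3 of 3 mice. With the offset for gene structure, which applies to Ereg as a gene of a single transcript, the values were -2.72 and -2.87 with adjusted p = 0.00316 and 0.00319, and DESeq2 gave an adjusted p of 0.0116 for 300 µg/mL. Senescent and control MEFs differed in Ereg by 0.55 (SE 0.66, adjusted p = 0.675). Against control MEFs Ereg differed by -1.09 at 100 µg/mL (adjusted p = 0.249), and without control mouse 4 the log2 difference was 0.03 (adjusted p = 0.98). The difference at 300 µg/mL was -1.82 (adjusted p = 0.0692), and it passed the threshold without control mouse 6 (adjusted p = 0.0468), with DESeq2 (0.0287) and without the filter (0.00562). With the offset for gene structure the differences from control MEFs were -2.16 and -2.31, both past the threshold (adjusted p = 0.00122 and 0.000988). The groups of 3 did not overlap for 3 of the 8 tested members at 100 µg/mL (Hbegf, Nrg1 and Ereg) and for 4 at 300 µg/mL (also Erbb2), beside 26.2% and 19.6% of all genes.

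Areg, Tgfa and Btc, the remaining ligands, were at the limit of detection. Areg had 13 counts over the 3 control mice (95% exact Poisson interval 6.92 to 22.2), 7 in senescent MEFs (2.81 to 14.4), 0 at 100 µg/mL, which allows up to 3 counts, and 1 at 300 µg/mL (0.025 to 5.57), and no fold is given for it. Tgfa, transforming growth factor alpha, had 2, 1 and 0 counts in control mice 4, 5 and 6 and 9, 13 and 5 in senescent MEFs, groups that did not overlap. Tgfa passed the filter on low counts only through samples of the senescent and 100 µg/mL groups. Its comparison with control MEFs is therefore not independent of the filter, and no fold or test is given for it. Tgfa remains among the tested members in the counts. Tgfa had 13, 11 and 0 counts at 100 µg/mL and 2, 5 and 1 at 300 µg/mL. Btc, betacellulin, ranged from 0 to 50 counts with 0 in at least 1 sample of each group other than the 300 µg/mL group, and the lowest adjusted p of its 6 comparisons was 0.811. These intervals cover counting error only.

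Egfr, the receptor of most of these ligands, was at 62.0, 69.7 and 65.2 CPM in control mice 4, 5 and 6 and at 79.2, 105 and 47.6 CPM in senescent MEFs. With 100 µg/mL it was 99.4, 108 and 136 CPM and with 300 µg/mL 101, 99.8 and 112 CPM. The treated samples were above every control sample, and the senescent samples spread across both, with mouse 5 inside the treated range and mouse 6 below the controls.

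The difference of Egfr from senescent MEFs was 0.57 (SE 0.24) at 100 µg/mL and 0.44 (SE 0.24) at 300 µg/mL on the log2 scale. Neither passed the threshold, with adjusted p = 0.208 and 0.433. Between senescent and control MEFs it was 0.23 (SE 0.24, adjusted p = 0.62), and it became 0.49 (adjusted p = 0.0298) without senescent mouse 6 and -0.03 without senescent mouse 5. Against control MEFs it rose by 0.80 (SE 0.24, 1.75-fold, adjusted p = 0.026) at 100 µg/mL, and the difference of 0.67 at 300 µg/mL had adjusted p = 0.0604. The difference at 300 µg/mL passed the threshold with DESeq2 (0.0434), with 10 counts required in every sample (0.035) and with the 2 groups alone (0.00638). It also passed with library 5(1) alone (0.0374) or both libraries of control mouse 5 kept separate (0.0472). With the offset for gene structure the differences from control MEFs were 0.17 (adjusted p = 0.707) and 0.31 (adjusted p = 0.495), and the difference from senescent MEFs at 100 µg/mL was -0.01. The call at 100 µg/mL was also lost without the treated sample of mouse 5 (0.0568) or mouse 6 (0.0945).

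Erbb2, the receptor without a ligand, was the only member called in senescence, and it was lower. Control mice 4, 5 and 6 had 52.8, 46.1 and 48.7 CPM and the senescent samples 26.2, 24.6 and 28.4 CPM. The level at 100 µg/mL was 25.9, 28.5 and 37.4 CPM and at 300 µg/mL 34.8, 29.2 and 33.5 CPM. Every control sample was above all 9 senescent samples, treated or not, and the 300 µg/mL samples were all above the untreated senescent ones.

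Between senescent and control MEFs Erbb2 fell by 0.90 (SE 0.20, 1.86-fold lower, adjusted p = 0.0118, edgeR) in 3 of 3 mice. It was 1 of 8 tested members called, beside 11.7% of all genes (5.63% lower, 6.11% higher), and the groups did not overlap for 2 of them (Erbb2 and Tgfa), beside 27.1% of all genes. The call held in 16 of 17 alternatives and was lost when only the 2 groups were fitted (-0.90, adjusted p = 0.0583). Over the 17 alternatives the difference ran from -1.21 to -0.84. At the doses the difference from senescent MEFs was 0.21 and 0.30, both with an SE of 0.20, and edgeR's adjusted p was 0.613 and 0.541. With the offset for gene structure the differences from senescent MEFs turned to -0.09 and -0.02. Against control MEFs Erbb2 fell by 0.68 (adjusted p = 0.0238) and 0.60 (adjusted p = 0.0461). Over the 17 alternatives these values ran from -1.31 to -0.50 and from -1.23 to -0.50. Both calls held with the offset and were lost without the filter on low counts (0.127 and 0.164). The first was also lost without control mouse 4, 5 or 6 (0.0939, 0.0554 and 0.0572) and without the treated sample of mouse 4 or 5 (0.116 and 0.0947). The second was lost without any 1 sample of either group (0.0556 to 0.151) and with the mouse as a block (adjusted p = 0.0517).

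Erbb3, the receptor of Nrg1, had 0 to 16 counts in a sample, with 12 counts over the group in both control and senescent MEFs, 31 at 100 µg/mL and 22 at 300 µg/mL. The lowest adjusted p of its 6 comparisons was 0.398. Erbb4, the other receptor that binds Nrg1 and not a member, had no count in the 3 control mice, 1 over the senescent group, 35 at 100 µg/mL and 42 at 300 µg/mL. Erbb4 passed the filter on low counts only through the samples with Fucoidan-FV, so no fold or test is given for it. It remains among the tested genes in the counts of pathway genes below. Its level stayed at or below 1.01 CPM in every sample.

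**Figure D3:**
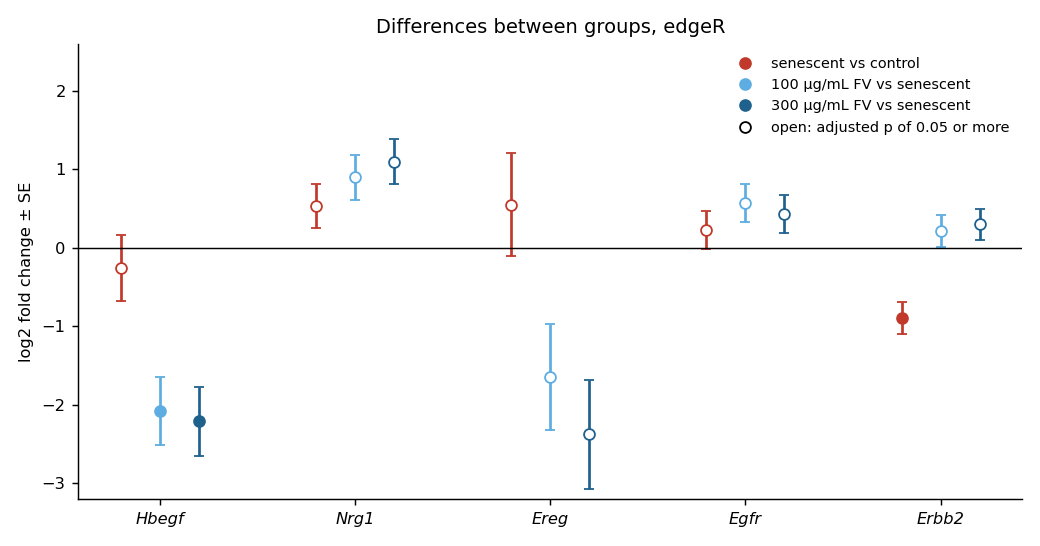
Log2 fold change with its SE for the 5 well-counted members in 3 comparisons, with filled points where edgeR's adjusted p was under 0.05. The filled points are Hbegf at both doses against senescent MEFs, near -2.1 and -2.2, and Erbb2 in senescent against control MEFs, at -0.90.

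The doses were also compared with each other, and none of the 8 members was called, beside 0.00665% of all genes, and 0 had an unadjusted p under 0.05. DESeq2 called 1 gene in all and no member. The ranges overlapped for each of the 8, beside 7.55% of all genes whose doses did not overlap. The difference of 300 from 100 µg/mL was -0.13 for Hbegf (95% interval -1.04 to 0.78), 0.20 for Nrg1 (-0.41 to 0.81), -0.73 for Ereg (-2.18 to 0.72), -0.14 for Egfr (-0.66 to 0.38) and 0.09 for Erbb2 (-0.35 to 0.52), all on the log2 scale. These intervals leave room for differences of more than 1.5-fold in Hbegf, Nrg1, Ereg and Egfr.

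Against control MEFs, 4 of 8 tested members were called at 100 µg/mL (Hbegf and Erbb2 lower, Nrg1 and Egfr higher), beside 26.6% of all genes (14.4% lower, 12.2% higher). At 300 µg/mL 3 were called (Hbegf and Erbb2 lower, Nrg1 higher), beside 24.4% (12% lower, 12.4% higher). The groups did not overlap for Hbegf, Nrg1, Egfr and Erbb2 at either dose, 4 of the 8 tested, beside 48.3% and 43.3% of all genes. These comparisons combine etoposide and Fucoidan-FV, and they share control samples with the senescence comparison and treated samples with the dose comparisons.

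Over the 12 samples, members that were lower with Fucoidan-FV also followed each other, as a description of groups and mice together. On log2 CPM, Pearson's r was 0.74 between Hbegf and Ereg, -0.87 between Hbegf and Nrg1, -0.86 between Hbegf and Egfr, and 0.86 between Nrg1 and Egfr, while Erbb2 had r = 0.22 with Hbegf. The samples share their library preparation and the structure effect above. Among 11893 named genes with a mean of 1 CPM or more, the pattern most like that of Hbegf was that of Phlda1 (r = 0.975), Fosl1 (0.973) and Arl4c (0.964). For Ereg these were Rgs16 (0.97), Gja3 (0.961) and Sema7a (0.957), and for Nrg1 Adamtsl1 (0.972), Satb1 (0.966) and Armh4 (0.965). Egfr was most like Heg1 (0.983), Stard9 (0.974) and Ttc28 (0.962), and Erbb2 most like Gpn3 (0.963), Sox12 (0.953) and Tlcd3a (0.949). Phlda1 and Fosl1 both belong to the list of ERK response genes below.

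The rest of the pathway was read from 80 genes in 5 lists by role, of which 76 were tested. In senescent against control MEFs 9 of the 76 were called, 3 higher and 6 lower, beside 11.7% of all genes. The release of ligands held 4 of them, out of 13 genes. Timp3, an inhibitor of the shedding protease ADAM17, rose from 346 ± 50.7 to 1138 ± 277 CPM (log2 1.72, SE 0.20, adjusted p = 0.000177), and the protease Adam12 fell by 1.87 (SE 0.32, adjusted p = 0.00221), from 173 ± 4.13 to 47.3 ± 19.0 CPM. Adam15 rose by 0.81 and Adam19 fell by 0.99 (adjusted p = 0.00634 and 0.0357), both named after their values were seen. The call of Adam19 was lost without control mouse 4 or 5 and without senescent mouse 5 or 6 (0.0985 to 0.173), and that of Adam15 with the offset for gene structure (0.52, 0.0781). Cblb and Araf were also named after their values were seen. Cblb, a ubiquitin ligase that marks receptors for breakdown, fell by 0.93 (adjusted p = 0.0241), and Araf, a kinase of the signal relay, rose by 0.60 (adjusted p = 0.0384). Both calls were lost without control mouse 4 (0.079 and 0.0631), and that of Araf also without control mouse 5 (0.0524), without senescent mouse 5 (0.0622) and with the mouse as a block (0.0632). Of the 20 ERK response genes 2 were lower and none higher, namely Etv4 by 0.91 (adjusted p = 0.0444, lost without any 1 sample, 0.0543 to 0.16, and with the mouse as a block, 0.0672) and Myc by 0.96 (adjusted p = 0.0077), and the median over the 20 was -0.02, beside 0.07 over all genes.

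With Fucoidan-FV the called genes of the pathway lay mostly among the ERK response genes. At 100 µg/mL 10 of the 76 genes were called, 1 higher and 9 lower, beside 4.02% of all genes, and at 300 µg/mL 8, all lower, beside 1.9%. Of the 20 ERK response genes 6 were lower and 0 higher at either dose, and the median over the list was -0.22 and -0.73, beside -0.02 and 0.00 over all genes. The 14 others were not called at either dose, and 11 and 14 of all 20 had a difference below 0. The doses share the senescent samples here too. The lists were chosen with earlier results of these data known, so these counts are a description and no test of the lists.

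Etv4, an ETS transcription factor, was 38.4 ± 5.05 CPM in senescent MEFs, 4.01 ± 1.41 CPM at 100 µg/mL and 5.52 ± 1.20 CPM at 300 µg/mL, and fell by 3.26 (SE 0.30, adjusted p = 0.000237) and 2.80 (SE 0.29, adjusted p = 0.000865). Fosl1, the AP-1 subunit FRA1, went from 17.5 ± 4.37 to 1.90 ± 1.28 and 1.22 ± 0.32 CPM and fell by 3.20 (adjusted p = 0.00859) and 3.84 (adjusted p = 0.00635). Dusp6, the phosphatase that inactivates ERK in the cytoplasm, went from 60.3 ± 4.97 to 10.5 ± 1.94 and 11.2 ± 1.29 CPM and fell by 2.52 (adjusted p = 0.000357) and 2.43 (adjusted p = 0.000865). Dusp5, its nuclear counterpart, went from 18.9 ± 17.5 to 2.10 ± 0.83 and 1.62 ± 0.70 CPM and fell by 3.17 (adjusted p = 0.0173) and 3.54 (adjusted p = 0.0155).

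Etv4 and Dusp6 kept both calls in all 17 alternatives, and Fosl1 lost the call at 100 µg/mL only in the fit of the 2 groups alone (0.0655). Dusp5 lost the call in 6 of 17 alternatives at 100 µg/mL and in 4 of 17 at 300 µg/mL, and its senescent samples ranged from 6.68 to 39.0 CPM. Without senescent mouse 6 its difference was -1.90 (adjusted p = 0.107) and -2.39 (0.0614), and it was also lost without the 100 µg/mL sample of any mouse (0.0661 to 0.0696), without the 300 µg/mL sample of mouse 4 or 6 (0.0706 and 0.109), and at 100 µg/mL with the mouse as a block (adjusted p = 0.0507).

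The other called genes are named after their values were seen. Among ERK response genes, Myc fell by 1.22 and 1.02 (adjusted p = 0.00765 and 0.0243) and Phlda1, which encodes a pleckstrin-homology-like protein, by 2.08 and 2.37 (0.0119 and 0.0101). Leaving out single samples ended the call of Myc at 300 µg/mL (senescent mouse 5, 0.0532, and treated mouse 5 or 6, 0.101 and 0.138) and that of Phlda1 at 100 µg/mL (senescent mouse 4 or 6, 0.0541 and 0.0971) and at 300 µg/mL (treated mouse 6, 0.0656). Sh3kbp1, an adaptor in the uptake of activated Egfr, fell by 1.90 and 1.78 (0.000896 and 0.00163), from 465 ± 43.4 to 125 ± 4.18 and 136 ± 22.3 CPM, in all 17 alternatives at both doses. Timp3 fell by 1.13 and 1.24 (0.00861 and 0.00874). Its calls were lost without senescent mouse 4 at 100 µg/mL (-0.72, 0.0726), without senescent mouse 5 (0.0511) and, at 300 µg/mL, without treated mouse 6 (0.0604) or with the offset (0.0533).

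In the signal relay, Braf, a RAF kinase, rose by 1.27 at 100 µg/mL (SE 0.30, adjusted p = 0.0338), from 16.2 ± 5.05 to 39.0 ± 8.02 CPM, and was 0.77 higher without a call at 300 µg/mL. Its call was lost without senescent mouse 5 or 6 (0.082 and 0.0895) and without treated mouse 4 or 5 (0.134 and 0.147), and with the offset for gene structure the difference was 0.46 (0.173). Src fell by 0.74 at 100 µg/mL (adjusted p = 0.0196), a call lost without senescent mouse 5 (0.0595) or treated mouse 4 or 5 (0.118 and 0.101). None of the 28 relay genes was called at 300 µg/mL. The median difference over the 28 was -0.11 and -0.02, beside -0.02 and 0.00 over all genes.

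**Figure D4:**
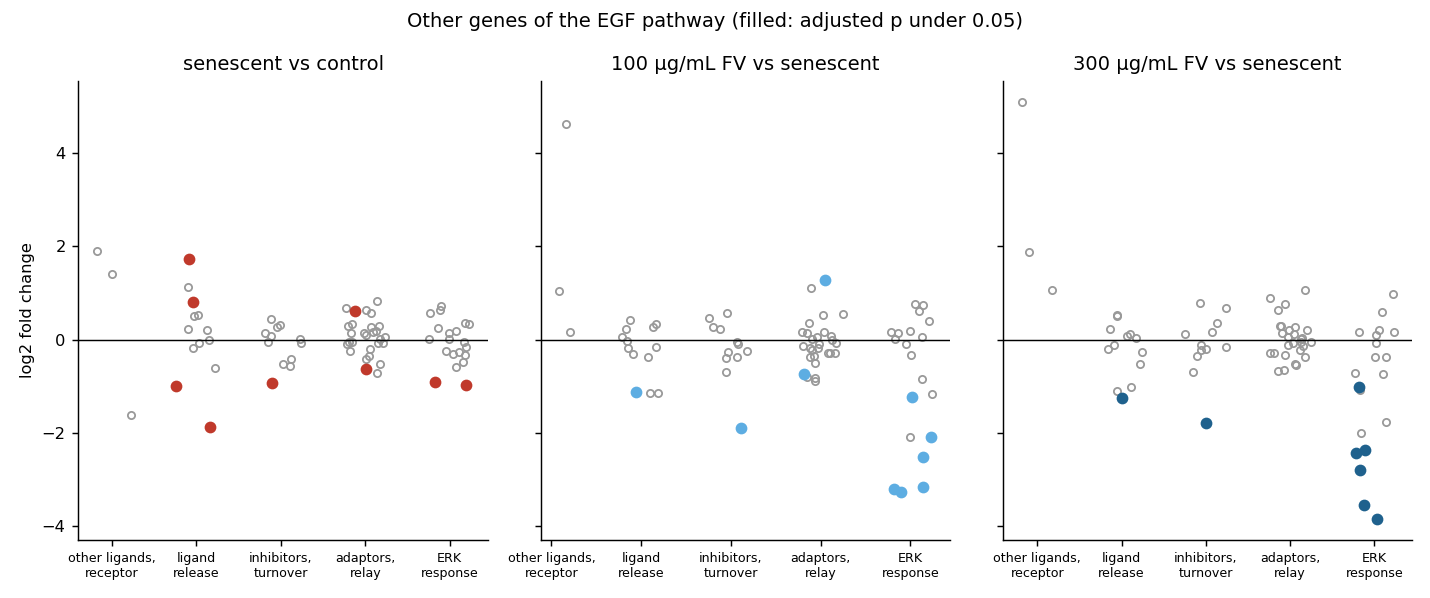
Log2 fold change of the 76 tested genes of the pathway in 3 comparisons, with 1 point per gene, the 5 lists by role along the x axis, and filled points where edgeR's adjusted p was under 0.05. At both doses 6 filled points of the ERK response list lie between -1.0 and -3.9, and 0 filled points lie above 0 in that list.

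Markers of other cell types were followed beside the members. The summed level of 10 epithelial markers was 15.9 to 33.3 CPM in control MEFs and 7.41 to 17.7 CPM in senescent MEFs. It was 1.83 to 3.75 CPM at 100 µg/mL and 1.86 to 3.20 CPM at 300 µg/mL, lower than in senescent MEFs like Hbegf. Most of it was Krt19, a keratin also found outside epithelia, at 10.2 ± 4.70 CPM in senescent MEFs and 1.63 ± 0.62 and 1.62 ± 0.27 CPM at the doses. Krt19 was at 25.4 ± 8.60 CPM in control MEFs, so its mean was also lower in senescence, where Hbegf was not called. The defining epithelial genes Epcam and Cdh1 had at most 0.33 and 0.21 CPM in any sample. The summed level of 6 endothelial markers was 1.47 to 3.29 CPM in senescent MEFs and 5.91 to 11.7 and 5.23 to 8.35 CPM at the doses, in the direction of Nrg1. It came from Tek (0.48 ± 0.35, 5.87 ± 1.81 and 4.92 ± 1.11 CPM), while Cldn5 had no count and Pecam1 and Cdh5 stayed at or below 1.03 and 0.41 CPM. The 7 macrophage markers summed to 3.07 to 16.9 CPM in senescent MEFs and 3.26 to 14 CPM with Fucoidan-FV, ranges that overlap. The 7 Schwann and glial markers stayed between 2.36 and 7.52 CPM in all samples. The 6 skeletal muscle markers summed to 149 to 359 CPM in senescent MEFs, 92.5 to 148 CPM at 100 µg/mL and 68.2 to 119 CPM at 300 µg/mL, lower than in senescent MEFs like Hbegf. Control MEFs had 104 to 196 CPM, a range that overlapped both doses, unlike that of Hbegf. Most of the sum in senescent MEFs and at the doses was Des (142 ± 108, 84.7 ± 10.4 and 61.8 ± 21.5 CPM) and Acta1 (80.7 ± 10.3, 38.5 ± 21.5 and 30.5 ± 12.4 CPM). Myod1 and Myog had at most 0.0425 and 0.0378 CPM in any sample. The part of the Krt19, Tek, Des and Acta1 signals in the members' differences was not tested.

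**Figure D5:**
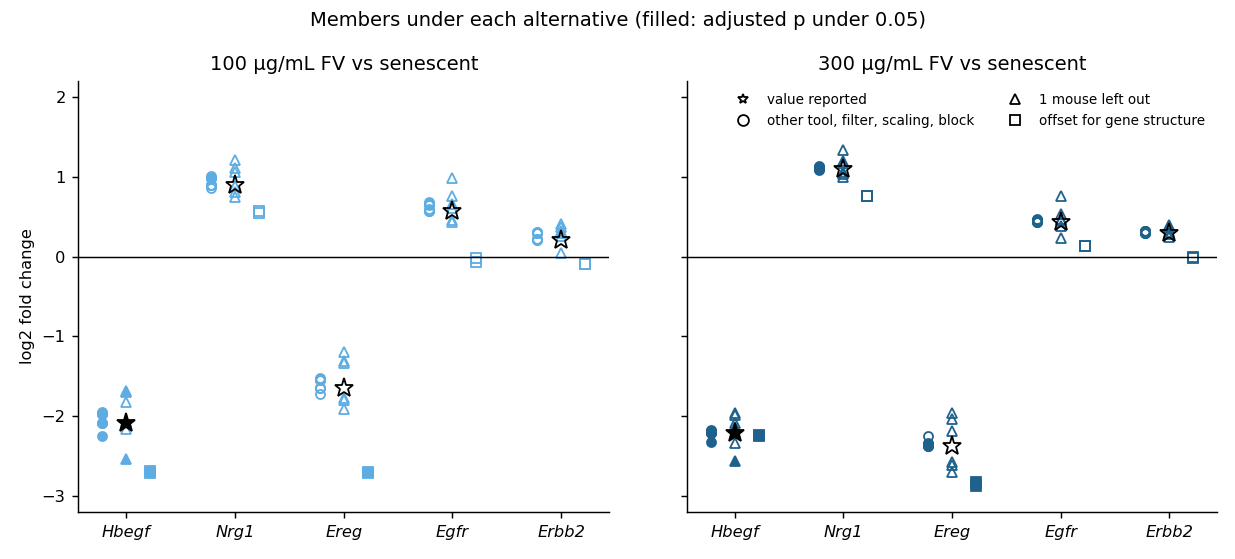
Log2 fold change of the 5 well-counted members against senescent MEFs at each dose under every alternative, with the reported value as a star, other tools, filters, scaling and the block as circles, fits without 1 sample as triangles and fits with an offset for gene structure as squares, all filled where the adjusted p was under 0.05. Hbegf and Ereg stay below 0 and Nrg1 above 0 throughout, and the squares of Egfr and Erbb2 lie near 0.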

How the data were processed

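Libraries of total RNA were prepared with a stranded kit (Illumina TruSeq). Per the labels, the authors checked reads with FastQC 0.12.1, trimmed them with Trimmomatic, aligned them to GRCm39 with STAR 2.7.11b and quantified genes with RSEM 1.3.1. The deposited expected counts are not normalized. The deposited TPM values, scaled by RSEM for length and depth, served only for levels between genes. A table of all libraries was also deposited and is not used here.

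Expected counts were rounded, libraries 5(1) and 5(2) summed (their TPM averaged), and 56310 of 57010 genes matched to GENCODE vM39. Genes passed filterByExpr (minimum count 10, minimum total 15), leaving 15034. edgeR 4.0.16 in R 4.3.3 fitted the 4 groups together (TMM factors, quasi-likelihood test, two-sided, Benjamini-Hochberg over all genes). A gene is called at adjusted p under 0.05, and a DEG also has an absolute log2 fold change over 1. Log2 CPM used a prior count of 2. The fit was tested on simulated counts.

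Named pathway genes are, per comparison, up to 4 DEGs with the largest rise and 4 with the largest fall at a mean of at least 1 CPM. The values of 1 pathway gene are not reported here. The members and lists were chosen with earlier results of these data known. The 22782536 to 31278750 counts per library set the precision.

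Alternatives were DESeq2 1.42.0, RLE factors, 2 filters, the 2 groups alone, the libraries of control mouse 5 separately or singly, a replicate block, each mouse left out, and an offset for single-transcript sequence, length and GC content (mgcv 1.9.3). The labels give each mouse number in all groups. The counts of mice that moved and the replicate block pair samples by this number, and the reported fit does not. Of 18 pairs of same-numbered samples, 8 had a correlation of deviations over 0.1 (median -0.006). The study's methods call the replicates independent.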

Additional observations from a re-analysis of the deposited data

How the results depend on the processing

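Each result was computed under up to 17 alternatives, and of the log2 fold changes 1114 kept their direction and their side of the threshold, 108 lost and 24 gained a call, and 35 changed sign without a call. The causes were not tested. Members called went from 1 to 0 in senescent against control and in 100 µg/mL against senescent MEFs when only the 2 groups were fitted, which uses fewer samples, and pathway genes from 9 to 5 and from 10 to 4. Without a filter the members called against senescent MEFs were 2 and 3 at 100 and 300 µg/mL, with the offset for gene structure 2 and 2 (also with the block), and with DESeq2 2 and 3. Requiring 10 counts in every sample gave 2 at 300 µg/mL. Pathway genes called at 300 µg/mL were 13 both without a filter and with DESeq2, and at 100 µg/mL 20 with the offset and 21 with offset and block. DESeq2 called 5 members at 300 µg/mL against control MEFs. A fold change over 2 as an added demand left 0 members and 2 pathway genes in senescence, and 2 and 15 at 100 µg/mL against control MEFs. The pathway genes counted against control MEFs, here and below, were drawn from a tested set that holds Erbb4, which passed the filter only through samples with Fucoidan-FV.

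With each mouse left out in turn, members called ranged from 1 to 2 in senescence, from 0 to 1 at either dose against senescent MEFs and from 2 to 3 at either dose against control MEFs. Pathway genes called ranged from 4 to 14 in senescence, from 7 to 10 and from 4 to 8 against senescent MEFs, and from 18 to 25 and from 19 to 25 against control MEFs.

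With the replicate block, Btc at 300 µg/mL against senescent MEFs changed sign to 0.46 (0.18 with the offset added). Beside Erbb2 at 300 µg/mL against control MEFs, the block changed no call of a member, and among the pathway genes named in the report it ended those of Etv4, Dusp5 and Araf.

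With the offset, and with offset and block, the difference from senescent MEFs at 100 µg/mL was -0.0123 and -0.0631 for Egfr and -0.088 and -0.096 for Erbb2, and with both it was -0.27 for Erbb3. At 300 µg/mL it was -0.0164 and -0.0101 for Erbb2. Between the doses it was 0.45 and 0.46 for Hbegf, 0.14 and 0.20 for Egfr, and 0.41 and 0.55 for Erbb3. With library 5(2) alone for control mouse 5, Erbb3 was at -0.0298 in senescence.

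Leaving out mice also moved these across 0. In senescence Btc ranged from -0.33 to 3.33, Erbb3 from -0.36 to 1.02 and Egfr from -0.0314 to 0.49. Against senescent MEFs, Btc ranged from -1.62 to 0.77 at 100 µg/mL and from -0.78 to 1.01 at 300 µg/mL, and Tgfa from -0.71 to 0.46 at 100 µg/mL. At 100 µg/mL against control MEFs, Ereg ranged from -1.36 to 0.0312 and Btc from -0.78 to 2.93. Between the doses, Hbegf ranged from -0.53 to 0.33, Nrg1 from -0.00499 to 0.35, Erbb2 from -0.0197 to 0.26, Egfr from -0.23 to 0.00818, Erbb3 from -1.14 to 0.20 and Btc from -0.17 to 1.44. Low counts limit Areg, Tgfa, Btc and Erbb3.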
